A study of Mus musculus with 18 samples.

Results

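The 10 genes described here encode machinery that builds melanosomes and moves them through the cell: the GTPases Rab32 and Rab38, the transport complex of Rab27a, Mlph and Myo5a, and the complex subunits Hps1, Hps4, Hps3, Hps5 and Dtnbp1. They were taken by gene symbol and role, by a rule that used no measured value but was set with earlier results of these data known, and all 10 were found among the 46068 named genes of the total RNA count table. The cells were B16, a pigmented mouse melanoma line, in an ATRA-treated group (all-trans retinoic acid, the ligand of the retinoic acid receptors), a PB-4-treated group (sodium 4-phenylbutanoate, a histone deacetylase inhibitor and chemical chaperone) and a control group, with 3 total RNA libraries each. Both agents were used by the study as inducers of differentiation, and every library comes from this single line. Skin is entered as the source material and B16 as the line, and neither dose nor length of treatment is given for the sequenced cultures in the sources used here. The study describes its experiment as repeated, without saying whether the sequenced libraries of a group came from separate cultures, so the p-values below cover only the spread among the samples at hand, which may be technical.

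Melanosomes are lysosome-related organelles in which pigment cells make and store melanin. Rab32 and Rab38 are paralogous GTPases that help to send pigment enzymes from endosomes to maturing melanosomes, and BLOC-3, the dimer of Hps1 and Hps4, is the exchange factor that switches them on. BLOC-1 (with Dtnbp1) and BLOC-2 (with Hps3 and Hps5) act on the endosomal tubules that carry this cargo, and loss of these subunits dilutes coat colour in mice. Mature melanosomes are held at the cell edge by Rab27a, its effector melanophilin (Mlph) and the actin motor myosin Va (Myo5a), whose mouse mutants are known as ashen, leaden and dilute.

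Stretches from start-site windows of 5 of these genes are shown because they share 1 hexamer, CACGTG (an E-box, the kind of sequence read by MITF and related factors, set in capitals). They come from RefSeq windows of 250 bases before to 50 bases after a start site (GRCm38.p6), which were found for 9 of the 10 genes (11 windows, with 2 each for Hps1 and Rab27a). No window was found for Rab38, which was therefore not searched. Each stretch is read 5′ to 3′ on the strand of its gene. Relative to the start, CACGTG began at -48 (Mlph), -1 (Hps1), -15 (Hps3), -227 and -192 (Hps5) and -246 (Rab27a). These positions count from the start site of each window, and the printed stretches of Mlph, Hps5 and Rab27a do not reach that site. The RefSeq gene spans begin upstream of it, within the printed stretches, for Mlph (90915024), Hps1 (42780015), Hps3 (20035334) and Hps5 (46796065). Distances from the 5′ ends of those genes are therefore different. The other windows of Rab27a and Hps1 held no match. For Rab27a that other window (73044560 to 73044859) holds the 5′ end of the gene, and the matching window lies inside the gene.
Mlph (chr1:90915012-90915097, plus strand): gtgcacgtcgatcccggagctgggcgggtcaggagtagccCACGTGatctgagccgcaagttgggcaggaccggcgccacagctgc
Hps1 (chr19:42779934-42780019, minus strand): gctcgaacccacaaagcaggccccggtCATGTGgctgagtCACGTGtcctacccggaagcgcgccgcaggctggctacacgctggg
Hps3 (chr3:20035280-20035365, minus strand): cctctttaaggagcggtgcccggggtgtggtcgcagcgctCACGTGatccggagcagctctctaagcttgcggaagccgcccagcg
Hps5 (chr7:46796063-46796131, minus strand): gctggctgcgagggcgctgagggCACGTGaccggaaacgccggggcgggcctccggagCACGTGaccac
Rab27a (chr9:73063898-73063947, plus strand): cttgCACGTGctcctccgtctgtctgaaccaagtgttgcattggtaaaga
CACGTG, which reads the same on both strands, was present in 5 of the 11 windows, against 7.15% of 32851 windows of all genes. The longer form TCACGTG or its reverse complement CACGTGA, looked for after the matches were read, was in the windows of Hps1, Hps3, Hps5 and Mlph, against 3.77% of all windows. CATGTG or its reverse complement CACATG was found only in Hps1, in the same stretch and also in capitals, against 14.2% of all windows. Neither CACGTG nor CATGTG was in the windows of Rab32, Myo5a, Hps4 and Dtnbp1. A match describes these letters only.

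Total RNA libraries held 12632669 to 36176443 counts in the ATRA-treated group, 13928215 to 35832073 in the PB-4-treated group and 17006638 to 32633226 in the control group. In each group the lowest total was that of replicate 3. Replicate 3 of each group stood apart from replicates 1 and 2 on the second principal component (30.7% of the variance), with Malat1, a nuclear RNA, lower by a log2 difference of -1.36, -1.11 and -2.23 in the ATRA-treated, PB-4-treated and control groups. Same-numbered libraries deviated together, but replicates 1 and 2 of different groups did so too, so only replicate 3 was set apart by number. Changes are given also with the replicate number as a block and with replicates 1 and 2 only. The melanocyte markers Mlana, Pmel, Tyrp1, Dct, Tyr, Mitf and Sox10 were detected in all 9 libraries, with a summed level of 7820 to 10100 CPM (counts scaled to library size) with ATRA and 6600 to 8630 CPM with PB-4, against 12300 to 14500 CPM in the control group (3 fell with PB-4, and 4 with the replicate block). With ATRA 0 of the 7 passed by edgeR without the block, 4 had an unadjusted p under 0.05, DESeq2 called 2 and 4 fell with the block. Markers of other cells rose in part with PB-4: 4 of 6 tested fibroblast genes (summed level 347 to 1310 CPM with PB-4 against 8.36 to 16.7 CPM in the control group, mostly Col1a1, with Thy1 at 0 in all 9 libraries), 3 of 4 neuronal genes (291 to 356 CPM against 94.4 to 151 CPM) and 2 of 4 immune genes (35.3 to 44.0 CPM against 11.6 to 16.6 CPM, with Cd3e at 0). Keratinocyte genes summed to 1.05 to 4.42 CPM with PB-4 against 0.113 to 0.191 CPM (1 of 2 tested rose, Krt1 at 0), and endothelial genes to at most 1.19 CPM in any library (the 1 tested passed only with the block, Kdr at 0). With the block, 4 fibroblast, 4 neuronal, 3 immune and 1 keratinocyte gene were higher with PB-4. The part of these genes in the PB-4 results was not tested, and in bulk RNA fewer cells of a type and less RNA per cell cannot be told apart.

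Few of the 10 genes passed in any comparison without the replicate block. With ATRA, 1 gene of the 10 passed (Rab32, lower), where 1.07% of all 17911 tested genes passed, and the median log2 fold change of the 10 was 0.13, against -0.0 for all genes, with 5 positive and 5 negative. With PB-4, again 1 passed (Rab38, lower), where 16.1% of 19450 genes passed, with a median of -0.42 against 0.03 for all genes, and 8 of the 10 values were negative and 2 positive. Set against ATRA, PB-4 changed 1 gene (Rab38, lower with PB-4), where 12.2% of 19521 genes passed, with a median of -0.26 against 0.04 (6 negative and 4 positive). The libraries of the groups did not overlap for 5 of the 10 genes in the ATRA comparison (21.3% of all genes), 3 in the PB-4 comparison (37% of all genes) and 3 between PB-4 and ATRA (33.8% of all genes).

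With the replicate block, 4 of the 10 genes passed with ATRA (18.4% of all genes), 7 with PB-4 (44.4%) and 4 between PB-4 and ATRA (29.8%). With replicates 1 and 2 only, 6 (37%), 6 (39.8%) and 4 (37.7%) passed. With PB-4 the 7 genes under the block were Rab32, Rab38, Myo5a, Hps3 and Hps5, all lower, and Hps1 and Dtnbp1, both higher.

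**Figure D1:**
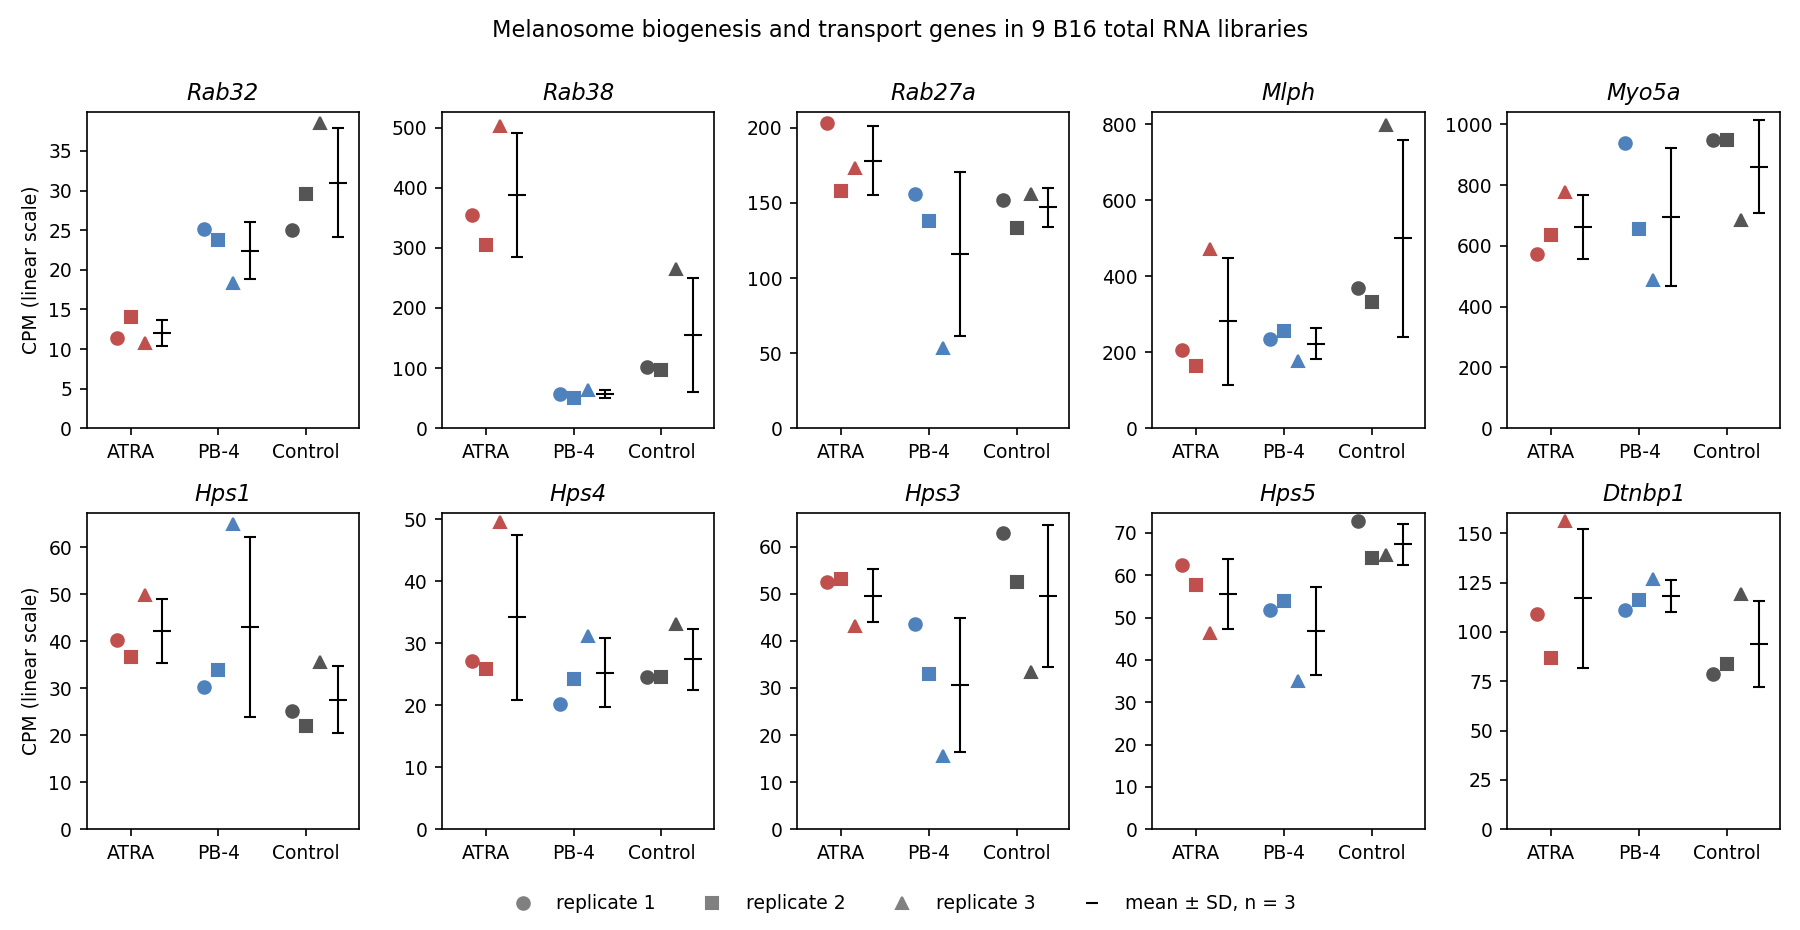
CPM (linear axis from 0) of the 10 genes in each of the 9 libraries, for the ATRA-treated, PB-4-treated and control groups. Points are libraries, with the symbol giving the replicate number, and bars are the mean ± SD (n = 3). Rab32 is lowest in the 3 ATRA libraries, and Rab38 is highest there and lowest in the 3 PB-4 libraries.

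The paralogs Rab32 and Rab38 had opposite signs of change with ATRA. Rab32, on chromosome 10 (10545039 to 10558207, GRCm38.p6), had 11.4, 14.0 and 10.8 CPM in the ATRA-treated group, against 25.0, 29.6 and 38.5 CPM in the control group (replicates 1 to 3). Every ATRA library was below every control library. Rab32 fell with ATRA to 0.386 times the control level (log2 fold change -1.37 ± 0.24 SE, adjusted p = 0.0468, and 0.00323 with the replicate block). The call was at the threshold: the adjusted p ran from 2.7e-05 to 0.254 over 14 alternatives and passed in 6 of them. It was lost without ATRA replicate 1 (0.254), 2 (0.168) or 3 (0.0506), and without control replicate 1 (0.143) or 2 (0.226), while the log2 fold change stayed between -1.51 and -1.10 in all 14.

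Rab38, on chromosome 7 (88430273 to 88491572), is the gene altered in the chocolate mouse. It had 355, 304 and 503 CPM in the ATRA-treated group, against 102, 97.2 and 265 CPM in the control group. All 3 ATRA libraries were above all 3 control libraries, and control replicate 3 was far above the other two. The log2 fold change was 1.32 ± 0.42 (2.49 times the control level, 95% interval 0.34 to 2.29 on the log2 scale) and did not pass (adjusted p = 0.192, and 7.7e-10 to 0.563 over its alternatives). It passed with the replicate block (1.45 ± 0.18, adjusted p = 0.00231), with replicates 1 and 2 only (1.73 ± 0.11, 7.7e-10), without control replicate 3 (1.98, 0.0185) and with DESeq2 (1.33, 0.0415).

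With PB-4 it was Rab38 that changed. Its libraries had 56.1, 50.2 and 64.0 CPM in the PB-4-treated group, against 102, 97.2 and 265 CPM in the control group, without overlap. Rab38 fell to 0.368 times the control level (log2 fold change -1.44 ± 0.39, adjusted p = 0.0376, and 1.4e-05 to 0.144 over its alternatives, of which 10 of 14 passed). The size of the fall rested in part on control replicate 3, without which it was -0.83 (adjusted p = 0.036), and the call was lost without PB-4 replicate 1 (0.0902), 2 (0.144) or 3 (0.0724) and with library totals as scaling (0.0525). Rab32 had 25.1, 23.8 and 18.3 CPM with PB-4, against 25.0, 29.6 and 38.5 CPM in the control group, and the groups overlapped. Its log2 fold change of -0.48 ± 0.24 did not pass (adjusted p = 0.212, ranging over the alternatives from 0.0348 to 0.552, with 0.0348 under the block).

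The difference in Rab38 between the 2 agents passed in every alternative run. Rab38 had 56.1, 50.2 and 64.0 CPM with PB-4, against 355, 304 and 503 CPM with ATRA. It was 0.150 times as high with PB-4 (log2 fold change -2.74 ± 0.26, adjusted p = 6.0e-04), and passed in 14 of 14 alternatives (adjusted p 2.1e-17 to 0.00577, log2 fold change -2.90 to -2.53). Rab32 had 25.1, 23.8 and 18.3 CPM with PB-4, against 11.4, 14.0 and 10.8 CPM with ATRA, without overlap. Its log2 fold change of 0.91 ± 0.26 fell just short of the threshold (adjusted p = 0.0506) and passed in 8 of 14 alternatives (4.8e-04 to 0.188), among them the replicate block (0.00201), RLE size factors (0.0437) and the fit without PB-4 replicate 3 (0.0287).

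The counts of Rab38 per count of Rab32 bring these values together within each library and do not depend on scaling. The ratio depends also on the length of the transcripts, so its differences between groups are read here and not its level, and since it was chosen after the values were seen no test is given. It was 31.3, 21.8 and 46.6 in the ATRA-treated group, 2.23, 2.11 and 3.50 in the PB-4-treated group and 4.09, 3.28 and 6.88 in the control group. The geometric mean with ATRA was 7.01 times that of the control group, with no overlap of the libraries. With PB-4 it was 0.563 times that of the control group, and PB-4 replicate 3 (3.50) lay above control replicate 2 (3.28). In each group the ratio was highest in replicate 3.

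**Figure D2:**
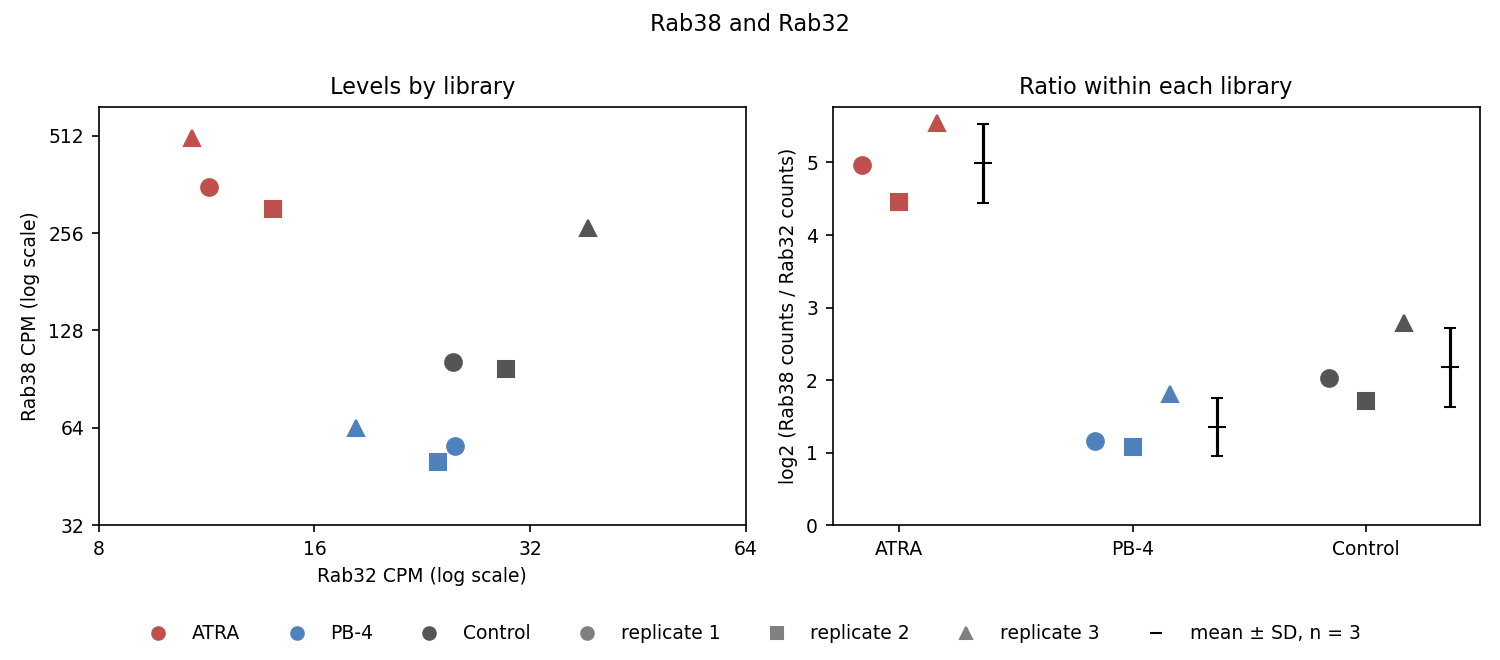
Left, Rab38 against Rab32 in CPM (both axes log scale) in the 9 libraries; right, the log2 ratio of Rab38 to Rab32 counts in each library with mean ± SD (n = 3). The ATRA libraries lie at low Rab32 and high Rab38, with ratios of 21.8 to 46.6, above the PB-4 libraries (2.11 to 3.50) and the control libraries (3.28 to 6.88).

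The genes whose profile over the 9 libraries was most like that of each GTPase, by the mean absolute difference of log2(CPM + 1) after centring each gene on its mean (10825 genes), were not shared. For Rab32 they were Limch1 (0.14), Phldb2 (0.15), a protein of the cell cortex, and Polr3g (0.17), an RNA polymerase III subunit. For Rab38 they were Car6 (0.23), a secreted carbonic anhydrase, Cxcl10 (0.23), a chemokine, and Cyp26b1 (0.35), an enzyme that breaks down retinoic acid. Cyp26b1 averaged 72.9 CPM with ATRA, 18.6 CPM with PB-4 and 38.5 CPM in the control group. Rab38 itself was 10652nd in likeness to Rab32, with a mean absolute difference of 1.40. It also ranked low in likeness to Myo5a (10575th), Mlph (10077th) and Rab27a (10018th), so its low rank was not particular to Rab32.

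For the genes of the actin transport complex, any call depended on the alternative used. Melanophilin, the link between Rab27a and the motor, is encoded by Mlph on chromosome 1 (90915024 to 90951142). It had 205, 165 and 472 CPM with ATRA and 235, 255 and 178 CPM with PB-4, against 369, 333 and 798 CPM in the control group. The PB-4 libraries were all below the control libraries, and those of ATRA overlapped with them through replicate 3, although ATRA was lower in 3 of 3 same-numbered pairs. With ATRA the log2 fold change of Mlph was -0.84 ± 0.48 (adjusted p = 0.449, ranging over the alternatives from 4.9e-06 to 0.765, with 0.00264 under the block), and 1 library moved it to -1.44 (without ATRA replicate 3) or -0.30 (without control replicate 3). With PB-4 it was -1.17 ± 0.34 (adjusted p = 0.0509, ranging over the alternatives from 0.00588 to 0.186, with 0.186 under the block), -1.16 (0.0176) with DESeq2, -1.18 (0.0163) without a filter on low counts, -0.69 without control replicate 3 and -0.50 (0.00588) with replicates 1 and 2 only. Between PB-4 and ATRA the sign of the Mlph difference turned with the libraries, from -0.30 ± 0.36 (adjusted p = 0.664, and 0.0482 to 0.837 over its alternatives) with all of them to 0.36 (0.0482) with replicates 1 and 2 only.

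Rab27a, the GTPase of this complex, is on chromosome 9 (73044810 to 73097623). It had 203, 158 and 173 CPM with ATRA and 156, 138 and 53.4 CPM with PB-4, against 152, 133 and 156 CPM in the control group. The ATRA libraries were just above the control libraries, and PB-4 replicate 3 stood alone below all others. Neither change passed: the log2 fold change was 0.26 ± 0.18 with ATRA (adjusted p = 0.544, and 0.0282 to 0.887 over its alternatives) and -0.37 ± 0.35 with PB-4 (0.517, and 0.299 to 0.946), and the second became 0.03 without PB-4 replicate 3. Relative to ATRA, PB-4 gave -0.60 ± 0.35 (adjusted p = 0.317, ranging over the alternatives from 0.0422 to 0.575, with 0.0422 under the block), and -0.31 without PB-4 replicate 3. The profiles most like that of Rab27a were those of Gm13910 (0.17), Pex2 (0.19), a peroxisome assembly gene, and Psen2 (0.19), a gamma-secretase subunit gene. Those most like Mlph were Fabp5 (0.18), a fatty acid binding protein gene, Gpr143 (0.19), which encodes a melanosomal receptor, and Srsf1 (0.2), a splicing factor gene.

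Myo5a, the motor gene, had 574, 637 and 779 CPM with ATRA and 939, 655 and 489 CPM with PB-4, against 950, 947 and 686 CPM in the control group. Both treated groups overlapped with the control group. Myo5a did not pass with ATRA (-0.38 ± 0.22, adjusted p = 0.458, and 1.3e-04 to 0.839 over its alternatives) and passed with PB-4 only under the replicate block (-0.33 ± 0.28, adjusted p = 0.467, ranging over the alternatives from 0.0279 to 0.862, with 0.0279 under the block), with -0.08 left without PB-4 replicate 3 and -0.60 without PB-4 replicate 1. The difference between PB-4 and ATRA was 0.09 ± 0.27 (adjusted p = 0.878). Among the profiles most like it were those of Mzt1, a gene of microtubule nucleation, and Daam1, an actin nucleator gene (0.07 each).

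**Figure D3:**
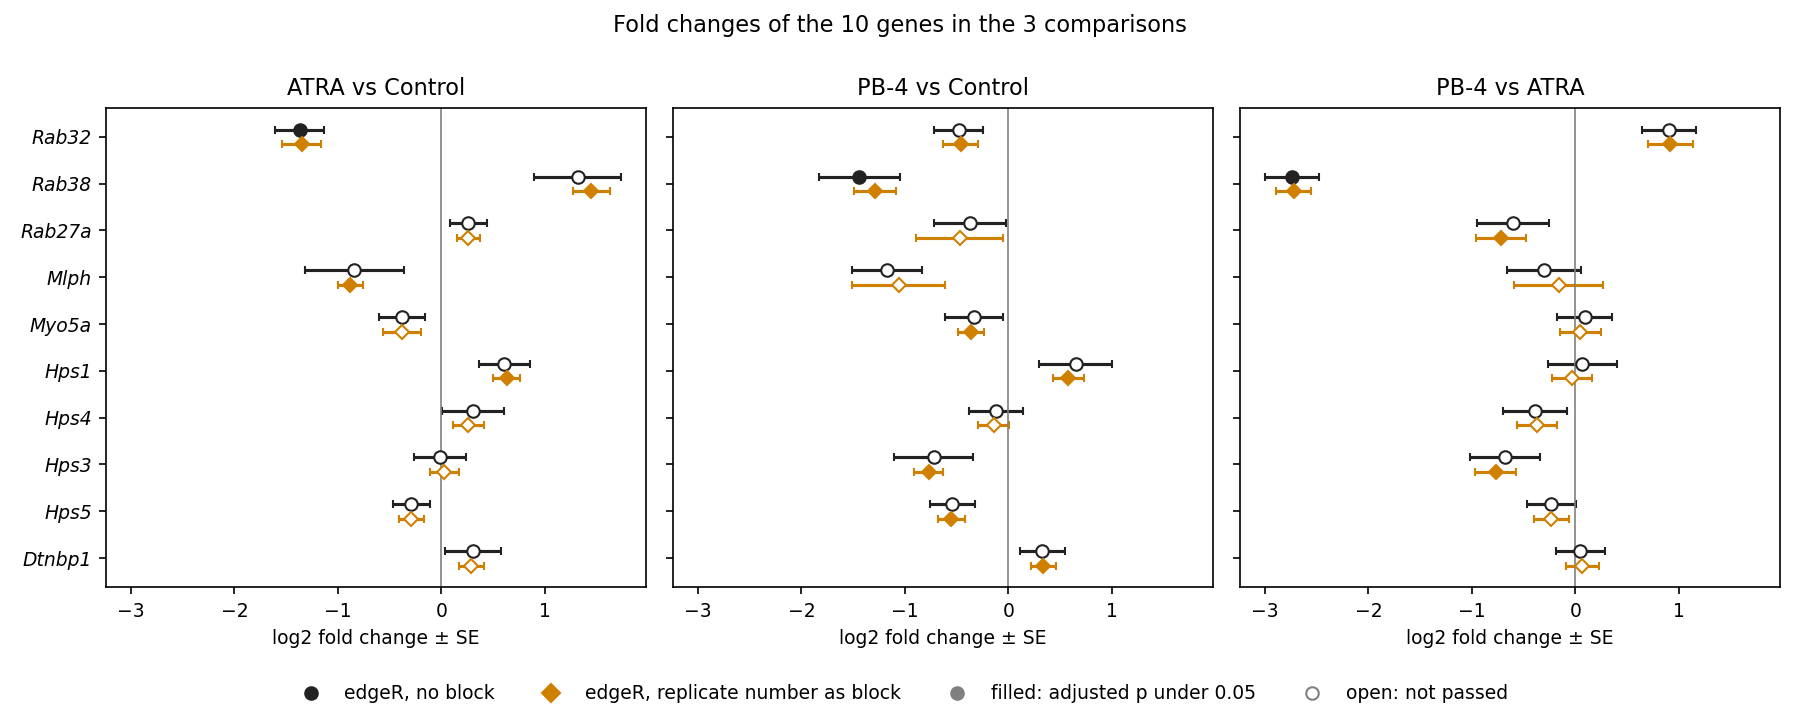
Log2 fold change ± SE of the 10 genes in the 3 comparisons by edgeR, without a block (circles) and with the replicate number as a block (diamonds). Filled symbols have an adjusted p under 0.05: without the block only Rab32 with ATRA and Rab38 in both PB-4 comparisons, and with it 4, 7 and 4 genes.

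The subunits of BLOC-3, the exchange factor of Rab32 and Rab38, had small differences. Hps1 (chromosome 19) had 40.4, 36.6 and 49.8 CPM with ATRA and 30.2, 33.8 and 65.1 CPM with PB-4, against 25.1, 21.9 and 35.7 CPM in the control group. All ATRA libraries were above the control libraries, and Hps1 was higher with PB-4 than with control in 3 of 3 same-numbered pairs. The log2 fold change of 0.61 ± 0.25 with ATRA did not pass (adjusted p = 0.289, ranging over the alternatives from 2.6e-04 to 0.698, with 0.0141 under the block). Nor did that of 0.65 ± 0.35 with PB-4 (adjusted p = 0.243, ranging over the alternatives from 0.00316 to 0.585, with 0.00316 under the block), and it was 0.24 without PB-4 replicate 3. Its partner Hps4 (chromosome 5) had 27.2, 25.9 and 49.5 CPM with ATRA and 20.2, 24.2 and 31.2 CPM with PB-4, against 24.6, 24.5 and 33.1 CPM in the control group. The Hps4 groups overlapped, and the 95% intervals of its log2 fold changes were -0.38 to 1.0 for the ATRA comparison (adjusted p = 0.68) and -0.71 to 0.47 for that of PB-4 (adjusted p = 0.789). With PB-4 relative to ATRA, Hps1 differed by 0.07 ± 0.33 (adjusted p = 0.927) and Hps4 by -0.39 ± 0.31 (adjusted p = 0.467).

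The BLOC-2 subunit genes were on the low side with PB-4. Hps3 (chromosome 3), altered in the cocoa mouse, had 52.6, 53.1 and 43.1 CPM with ATRA and 43.6, 32.9 and 15.5 CPM with PB-4, against 63.0, 52.6 and 33.3 CPM in the control group. PB-4 was below control in 3 of 3 same-numbered pairs, although the groups overlapped. The log2 fold change of Hps3 with PB-4 was -0.72 ± 0.38 (adjusted p = 0.237, ranging over the alternatives from 8.4e-05 to 0.509, with 8.4e-05 under the block), and -0.35 without PB-4 replicate 3. With ATRA it was -0.01 ± 0.25 (95% interval -0.59 to 0.57, adjusted p = 0.987). Hps5 (chromosome 7) had 62.5, 57.6 and 46.4 CPM with ATRA and 51.9, 53.9 and 34.9 CPM with PB-4, against 72.8, 64.1 and 64.9 CPM in the control group. Here both treated groups lay wholly below the control group. The log2 fold change of Hps5 was -0.29 ± 0.18 with ATRA (adjusted p = 0.502, and 0.132 to 0.811 over its alternatives) and -0.54 ± 0.22 with PB-4 (adjusted p = 0.134, ranging over the alternatives from 0.00145 to 0.332, with 0.00145 under the block), the second being -0.32 without PB-4 replicate 3.

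Between PB-4 and ATRA, Hps3 differed by -0.68 ± 0.34 (adjusted p = 0.241, ranging over the alternatives from 0.00419 to 0.447, with 0.00419 under the block) and Hps5 by -0.23 ± 0.24 (adjusted p = 0.611). Hps3 overlaps the ceruloplasmin gene Cp, which had 1880, 2120 and 1410 CPM with PB-4, against 581, 896 and 464 CPM with ATRA (log2 fold change 1.49 ± 0.31, adjusted p = 0.0147). The strand used in counting is not given in the sources used here, so reads of the 2 genes may not be fully separated. Hps4 overlaps Srrd in the same way (6.70 to 15.2 CPM over the 9 libraries).

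Dtnbp1, which encodes the BLOC-1 subunit dysbindin and is altered in the sandy mouse, is on chromosome 13. It had 109, 86.8 and 156 CPM with ATRA and 111, 116 and 127 CPM with PB-4, against 78.8, 83.9 and 119 CPM in the control group. Each treated library was above its same-numbered control library, and the groups overlapped. Its log2 fold change of 0.31 ± 0.27 with ATRA did not pass (adjusted p = 0.639, and 0.0685 to 0.938 over its alternatives), and was 0.06 without ATRA replicate 3 and 0.55 without control replicate 3. That of 0.33 ± 0.22 with PB-4 passed under the replicate block (adjusted p = 0.351, ranging over the alternatives from 0.0046 to 0.662, with 0.0204 under the block), and between PB-4 and ATRA it was 0.05 ± 0.24 (adjusted p = 0.935). The other 7 BLOC-1 subunit genes (Bloc1s1 to Bloc1s6 and Snapin) and Hps6, the remaining BLOC-2 subunit gene, passed in 0 of the 3 comparisons by edgeR or DESeq2, and 1 of the 7 had an unadjusted p under 0.05, with ATRA. With the replicate block 1 of the 7 rose with ATRA and 1 fell with PB-4. The median log2 fold change of the 7 was 0.16 with ATRA, 0.08 with PB-4 and -0.10 between PB-4 and ATRA.

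Among the partners of these complexes some genes of motors, adaptors, tethers and the Rab27 cycle were called. Of all genes, 1.07% passed with ATRA, 16.1% with PB-4 and 12.2% between PB-4 and ATRA. With the block these shares were 18.4%, 44.4% and 29.8%. Kif5b encodes the heavy chain of kinesin-1, which carries melanosomes outward on microtubules. It had 381, 458 and 342 CPM with ATRA and 628, 530 and 359 CPM with PB-4, against 1020, 1060 and 817 CPM in the control group. Both treated groups lay wholly below the control group. Kif5b fell with ATRA (log2 fold change -1.31 ± 0.21, adjusted p = 0.0388, and 6.9e-08 to 0.243 over its alternatives), a call lost without ATRA replicate 1 (0.243) or 2 (0.139), without control replicate 1 (0.182) or 2 (0.226) and with library totals (0.052). Kif5b fell with PB-4 too (-0.96 ± 0.26, adjusted p = 0.0388, and 1.3e-06 to 0.154), a call lost without PB-4 replicate 2 (0.154) or 3 (0.0732), without control replicate 1 (0.117) or 2 (0.148) and with library totals (0.0774).

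Of the 13 motor and microtubule transport genes tested with ATRA, Kif5b fell and 12 did not pass. With PB-4, Kif5b fell, Myo5c rose at under 1 CPM in both groups (adjusted p = 0.0426, and lost without PB-4 replicate 1, 2 or 3 or control replicate 1 or 2, at 0.0557 to 0.145) and 11 did not pass. Between PB-4 and ATRA 0 of 13 passed by edgeR, with 3 at an unadjusted p under 0.05 and 2 called by DESeq2. With the replicate block 1 rose and 1 fell with ATRA, 2 rose and 6 fell with PB-4, and 1 was higher and 1 lower with PB-4 than with ATRA.

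AP-3 is the adaptor that sorts cargo from endosomes to melanosomes. Of its subunit genes and those of AP-1 (12 in all), 0 of 11 tested passed with ATRA by edgeR (2 at an unadjusted p under 0.05, 1 called by DESeq2, and 3 lower with the replicate block), and with PB-4 2 rose, 1 fell and 9 did not pass, while under the block 2 were higher and 4 lower. Those that rose, Ap3b2 and Ap3m2, encode subunits of the neuronal form of AP-3. Ap3b2 had 92, 78 and 115 counts with PB-4, against 0, 4 and 0 counts in the control group (adjusted p = 0.0058) and 2, 0 and 0 counts with ATRA. Ap3m2 had 38.6, 38.1 and 24.2 CPM with PB-4, against 15.9, 12.5 and 11.6 CPM in the control group (log2 fold change 1.32 ± 0.26, adjusted p = 0.0128, and lost without PB-4 replicate 2, at 0.0605, or control replicate 2, at 0.0665). The neuronal markers given above moved in the same comparison, and their part in this result was not tested.

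Ap3s1, a further AP-3 subunit gene, had 40.2, 32.0 and 26.4 CPM with PB-4, against 55.7, 55.8 and 64.1 CPM in the control group, without overlap. It fell (-0.84 ± 0.22, adjusted p = 0.0323, and 3.7e-05 to 0.163 over its alternatives), and its call was lost without PB-4 replicate 2 (0.163) or 3 (0.0702), without control replicate 1 (0.0917), 2 (0.111) or 3 (0.0531) and with library totals (0.0691). In PB-4 against ATRA, Ap3b2 alone of the 12 passed (higher with PB-4, adjusted p = 0.00233, and 2 higher with the block).

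Of 14 regulators, tethers and SNAREs that work with Rab32 and Rab38, 0 passed with either agent by edgeR without the block. With ATRA 1 had an unadjusted p under 0.05, DESeq2 called 0 and 3 fell with the block. With PB-4 these counts were 5, 2 and 7, with 1 gene higher under the block. Vps11, a subunit of the HOPS tether, was lower with PB-4 than with ATRA (48.7, 54.0 and 49.7 CPM with PB-4, against 86.9, 80.9 and 101 CPM with ATRA, log2 fold change -0.79 ± 0.20, adjusted p = 0.0318). That call was lost when any of ATRA replicates 1 (0.131), 2 (0.0954) and 3 (0.0576) or PB-4 replicates 1 (0.0939) and 2 (0.116) was left out, and with library totals (0.0568). With the block, 2 of the 14 were higher and 3 lower with PB-4 than with ATRA.

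Of 15 genes of the Rab27 cycle and its effectors, 0 of 13 tested passed with ATRA by edgeR (3 at an unadjusted p under 0.05, 1 called by DESeq2, and 2 higher and 1 lower with the block). With PB-4, Rabggtb, a subunit of the enzyme that attaches the lipid anchor to Rab proteins, fell among 12 tested (4 rose and 2 fell with the block). It had 42.1, 38.5 and 27.4 CPM with PB-4, against 64.4, 67.8 and 62.7 CPM in the control group (-0.87 ± 0.22, adjusted p = 0.0294, and 1.1e-05 to 0.125 over its alternatives). The call was lost without PB-4 replicate 2 (0.121) or 3 (0.0507), without control replicate 1 (0.094) or 2 (0.125) and with library totals (0.0667). Rab27b, the paralog of Rab27a, had 13.7, 17.0 and 6.19 CPM with PB-4, against 3.56, 3.12 and 0.511 CPM with ATRA. Rab27b was higher with PB-4 than with ATRA (2.31 ± 0.64, adjusted p = 0.0472, and 3.0e-07 to 0.156), a call lost without ATRA replicate 1 (0.0887) or 2 (0.0856) or PB-4 replicate 1 (0.105) or 2 (0.156), with filterByExpr (0.0516) and with all 9 libraries in one fit (0.0549). Myrip, at under 1 CPM, passed in the same direction, and the other 11 tested genes did not pass. With the block, 5 of all 13 tested were higher and 2 lower with PB-4 than with ATRA.

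**Figure D4:**
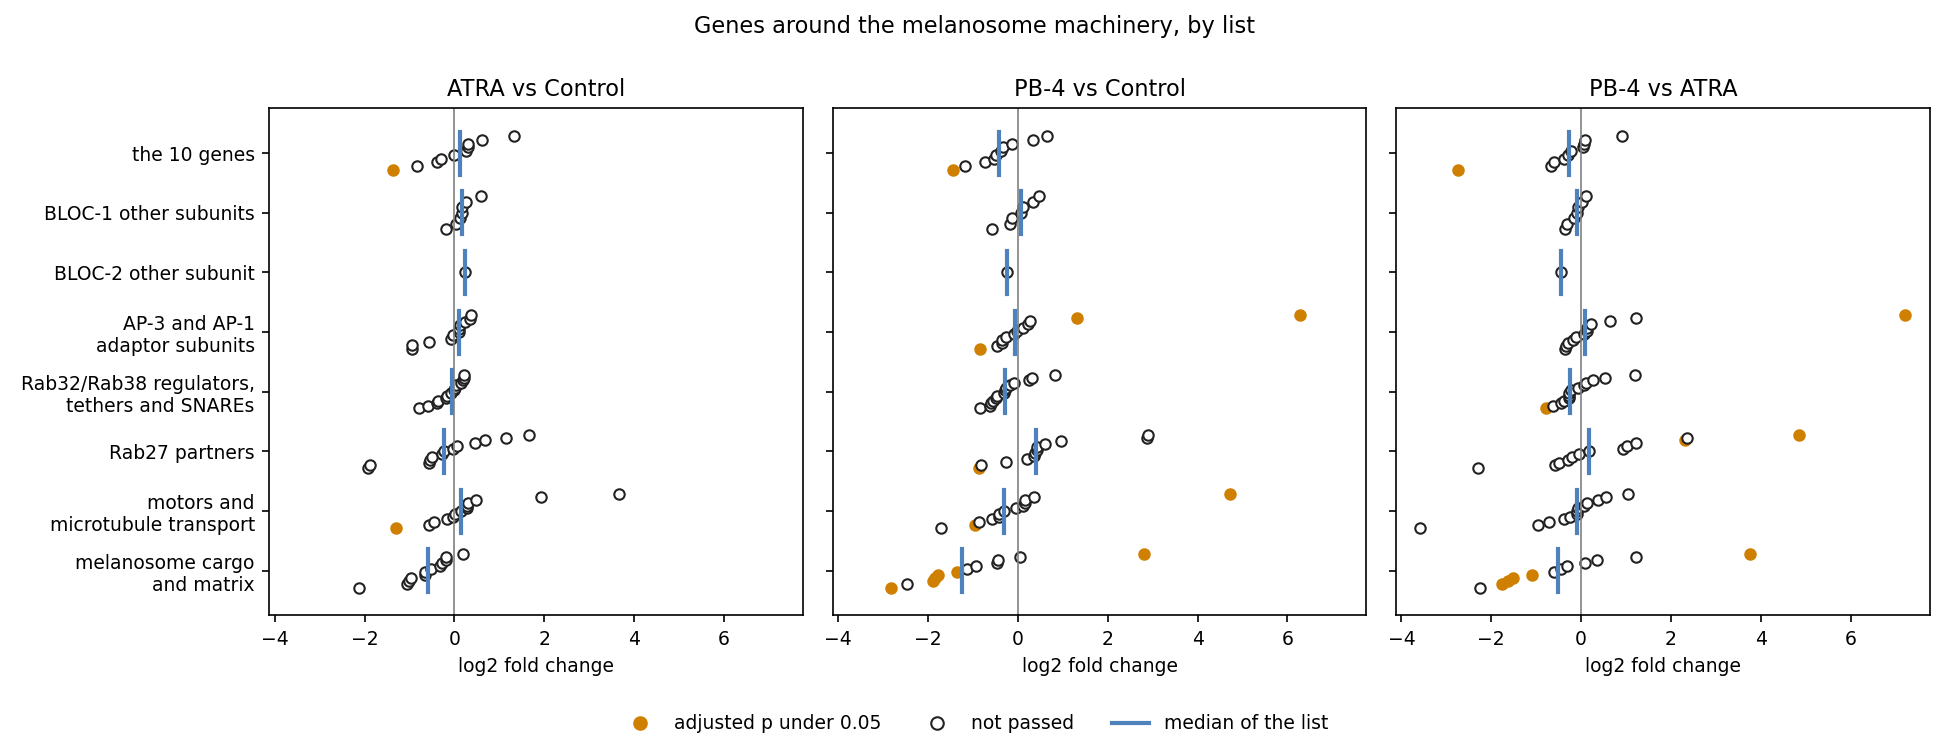
Log2 fold changes of the 10 genes and of 7 lists of genes around them in the 3 comparisons. Each point is a gene, filled where the adjusted p was under 0.05 by edgeR without the block, and the blue bar is the median of the list. The cargo and matrix list has the lowest median with PB-4 (-1.25), against -0.42 for the 10 genes.

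Melanosome cargo and matrix genes showed more calls with PB-4 than the machinery did, though the difference between the lists was not tested. Which of their products this machinery carries was not tested either. Of 12 cargo and matrix genes, 5 fell with PB-4, 1 rose and 6 did not pass, where 16.1% of all genes passed. Under the block 10 were lower and 1 higher (44.4% of all genes passed). Of the 10 machinery genes, 1 passed without the block, and 5 were lower and 2 higher with it. The median log2 fold change of the 12 was -1.25, against -0.42 for the 10 machinery genes and 0.03 for all genes. Pmel, whose product builds the melanosome's inner fibrils, had 535, 580 and 461 CPM with PB-4, against 1480, 1670 and 2630 CPM in the control group. Pmel fell (log2 fold change -1.88 ± 0.27, adjusted p = 0.00322), as did Mlana, a melanosomal membrane protein gene (-2.83 ± 0.37, 0.00242), and the transporter gene Slc45a2 (-1.84 ± 0.27, 0.00366). The ion exchanger gene Slc24a4 rose (2.81 ± 0.64, adjusted p = 0.0212) at a mean of 4.07 CPM with PB-4, against 0.569 CPM in the control group, and lost its call without PB-4 replicate 1 (0.0674) or 2 (0.0609) or control replicate 1 (0.0811) or 2 (0.0636). With ATRA 0 of the 12 passed by edgeR (1.07% of all genes passed), with 5 at an unadjusted p under 0.05 and 1 called by DESeq2. Under the replicate block 5 fell (18.4% of all genes passed). The median was -0.59 with ATRA, against 0.13 for the 10 machinery genes. In PB-4 against ATRA, 4 of the 12 genes fell, 1 rose and 7 did not pass (3 passed without PB-4 replicate 2), where 12.2% of all genes passed. Under the block 5 were lower and 2 higher (29.8% of all genes passed).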

How the data were processed

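Total RNA of B16 cells was compared between ATRA-treated, PB-4-treated and control groups (3 libraries each). The authors deposited raw counts per gene, in whole numbers and without normalization. The submitters' processing notes name HISAT2 2.0.4 and GRCm38, and no counting tool, annotation or strand setting is given in the sources used here. Of 46095 rows, 27 named as dates or repeated were left out. The miRNA table was not used here.

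Pairs of groups were fitted with edgeR 4.0.16 (robust quasi-likelihood, TMM, genes with a sum of at least 10 counts) in R 4.3.3 on all genes, with p-values adjusted by Benjamini-Hochberg and called below 0.05. SE is the absolute log2 fold change over the square root of F. CPM used TMM factors over 9 libraries. Only the edgeR fit without the block was tested, on simulated counts with the same dispersion in every gene and no replicate effect. The other fits were not tested in this way. Alternatives were DESeq2 1.42.0, RLE factors, library totals, no filter, filterByExpr, all 9 libraries, the replicate block, replicates 1 and 2 only, and each library left out. Same-numbered libraries correlated in their deviations from group means (r 0.442 to 0.763, above 0.1 in every pair), so the numbers were taken to pair samples. Replicates 1 and 2 of different groups also correlated (ATRA replicate 2 had r 0.573 with PB-4 replicate 1 and 0.522 with PB-4 replicate 2). These correlations therefore do not decide which of replicates 1 and 2 belong together across groups.

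The members and lists were chosen with earlier results of these data known. Named genes were all 10 members, of each list up to 3 called genes per direction with the smallest adjusted p and a mean of at least 1 CPM, and the 3 most alike profiles (mean of at least 5 CPM) for Rab32, Rab38, Rab27a, Mlph and Myo5a. Myo5c, Myrip and overlapping genes were named after their values were seen. Promoter windows were RefSeq's. Tables and figures used Python 3.11.15, pandas 2.3.3 and matplotlib 3.10.9.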

Additional observations from a re-analysis of the deposited data

How the results depend on the processing

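Of 420 alternative values for the 10 genes, 350 kept direction and side of the threshold, 12 lost the call, 34 gained it and 24 changed sign. The cause was not tested. Genes called with ATRA (191) were 1248 with DESeq2, 411 without a filter, 388 with all 9 libraries, 3288 with the replicate block, 6457 with replicates 1 and 2 only, and 10 to 980 with 1 library left out (10, 32 and 635 without ATRA replicates 1, 2 and 3, and 12, 10 and 980 without control replicates 1, 2 and 3). Those with PB-4 (3139) were 8630 with the block, 7461 with replicates 1 and 2 only and 1341 to 3440 with 1 left out (1488 without PB-4 replicate 2, 1533 and 1341 without control replicates 1 and 2). Those between PB-4 and ATRA (2384) were 5821, 7131 and 1194 to 2761 (1572 and 1264 without PB-4 replicates 1 and 2, 1194 and 1412 without ATRA replicates 1 and 2).

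Of the 10 genes, 1 was called in each comparison. With ATRA this was 2 with DESeq2, 0 with RLE factors, library totals or filterByExpr, 4 with the block, 6 with replicates 1 and 2 only and 0 to 2 with 1 library left out. With PB-4 it was 2 with DESeq2 or no filter, 0 with library totals, 7 with the block, 6 with replicates 1 and 2 only and 0 to 1 with 1 left out. Between PB-4 and ATRA it was 2 with DESeq2, RLE factors, library totals, filterByExpr or all 9 libraries, 4 under the block, 4 for replicates 1 and 2 alone, and 1 to 2 with 1 left out. The block changed no other call of the 10 genes than those given beside their values.

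Sign changes, all but 1 with an adjusted p above 0.05, were as follows. With ATRA, Hps4 was -0.05 to 0.49 with 1 library left out, and Hps3 was 0.0 with DESeq2 or RLE factors, 0.03 with library totals or the block, 0.01 without a filter or with filterByExpr, and -0.2 to 0.19 with 1 library left out. With PB-4, Rab27a was 0.07 with replicates 1 and 2 only and -0.63 to 0.03 with 1 left out, and Hps4 was 0.05 with library totals and -0.28 to 0.02 with 1 left out. Between PB-4 and ATRA, Mlph was 0.36 (adjusted p = 0.0482) with replicates 1 and 2 only and -0.56 to 0.26 with 1 left out (the last without ATRA replicate 3), Myo5a was -0.19 to 0.23 with 1 left out, Hps1 was -0.03 with the block, -0.31 with replicates 1 and 2 only, -0.43 to 0.26 with 1 left out, and Dtnbp1 was -0.12 to 0.27 with 1 left out.

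Library totals moved the median log2 fold change over all genes to 0.04 with ATRA (85 up, 87 down, against 79 and 112), 0.20 with PB-4 (2673 and 489, against 2246 and 893) and 0.15 between PB-4 and ATRA (2291 and 258, against 2006 and 378). The lowest count of any of the 10 genes in a library was 127, for Rab32 in ATRA replicate 3.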
